A study of Mus musculus with 16 samples.

Results

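The microarray used for the sorted mouse cardiomyocytes (CMs) carries probes for long intergenic noncoding RNAs (lincRNAs) that have no gene symbol and are named by a chromosome interval and a strand letter, F for forward and R for reverse. All non-control probes with such a name on an autosome were taken, except 11 probes of 1 interval range that are not reported here. This gave 15593 of the 55681 probes, in 3385 intervals with a median length of 7451 bases (quartiles 794 and 21813). An interval and strand had a median of 3 probes and at most 10. Another 33104 probes carry a gene name and served as the comparison.

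RNA of 4 groups of CD1 wild-type CMs was hybridized, with 4 microarrays per group. EL and EH were ERBB-2+ cells of hearts at embryonic day 15.5 (E15.5) with low or high surface integrin alpha 6 (ITGA6low, ITGA6high). PL and PH were ITGA6low and ITGA6high cells of hearts at postnatal day 2 (P2), which had first been depleted of non-myocytes with magnetic beads. Each sample was a pool of 20 to 30 embryonic or 15 neonatal hearts, with at least 50000 cells and 10 ng RNA per fraction. The p-values measure the spread between these pools. Since the E15.5 and P2 cells were enriched in different ways and all P2 microarrays were on 1 slide, stage, enrichment and slide cannot be told apart.

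LincRNAs are transcribed from DNA between protein-coding genes and are often spliced and polyadenylated like messenger RNA. As a class they are less abundant and more restricted to single tissues than messenger RNAs, and many are transcribed next to genes of developmental transcription factors. In the heart, such noncoding neighbours are known at several loci of chamber and patterning regulators. An unnamed interval can also hold an unannotated end of a neighbouring gene, and a microarray probe alone does not separate this from an independent transcript.

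The sequences on which the main comparisons rest are the 60-base probes as given in the files. Those of the interval chr5:120269342-120279542 (mm9), which lies beside Tbx5 and has probes on both strands, are shown as 3 pairs of a forward and a reverse probe. Capitals mark the bases that are exactly complementary to the partner. The shared stretches are 44, 50 and 59 bases long, so each pair reads opposite strands of the same DNA.
A_30_P01029463: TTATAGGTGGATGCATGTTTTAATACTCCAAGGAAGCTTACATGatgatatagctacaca
A_30_P01029862: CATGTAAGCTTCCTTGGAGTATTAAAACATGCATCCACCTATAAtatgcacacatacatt
A_30_P01017487: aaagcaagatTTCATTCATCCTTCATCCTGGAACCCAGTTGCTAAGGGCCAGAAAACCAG
A_30_P01023819: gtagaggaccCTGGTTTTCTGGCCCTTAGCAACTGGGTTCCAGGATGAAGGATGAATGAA
A_30_P01025681: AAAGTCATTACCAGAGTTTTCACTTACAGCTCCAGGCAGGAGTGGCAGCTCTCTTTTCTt
A_30_P01021685: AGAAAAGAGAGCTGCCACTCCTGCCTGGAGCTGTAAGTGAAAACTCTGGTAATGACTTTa

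Single probes are shown for a few further loci that differed between fractions or stages. In order they belong to chromosome 6 beside 2210408F21Rik, chromosome 7 beside Nr2f2, chromosome 13 beside Irx4 and chromosome 2 beside 2810405F15Rik. A pair from chromosome 13, at lower coordinates than Sox4, comes next. The first of the pair differed between fractions and the second between stages. The last 3 are neighbouring probes of 1 interval beside Cntn1, of which the middle one behaved unlike the others.
A_30_P01022038: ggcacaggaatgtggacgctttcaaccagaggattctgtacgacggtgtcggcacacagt
A_30_P01032993: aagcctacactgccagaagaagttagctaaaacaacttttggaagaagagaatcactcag
A_30_P01018323: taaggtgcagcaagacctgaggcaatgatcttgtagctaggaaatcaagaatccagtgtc
A_30_P01031970: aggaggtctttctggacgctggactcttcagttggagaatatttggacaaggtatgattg
A_30_P01018833: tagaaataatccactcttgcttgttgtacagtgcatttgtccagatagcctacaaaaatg
A_30_P01017880: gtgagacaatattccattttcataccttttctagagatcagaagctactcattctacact
A_30_P01018460: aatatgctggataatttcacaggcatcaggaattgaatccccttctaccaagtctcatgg
A_30_P01018976: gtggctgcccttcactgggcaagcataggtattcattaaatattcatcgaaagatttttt
A_30_P01031118: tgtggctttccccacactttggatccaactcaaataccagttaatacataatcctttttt

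Most interval probes were not detected in CMs. A probe was called detected in a group when the scanner software marked it as well above background on all 4 microarrays. By this rule 2206 interval probes (14.1%) were detected in EL and 2440 (15.6%) in EH, then 2093 (13.4%) in PL and 2136 (13.7%) in PH. Gene-named probes were detected at 47.3%, 49.9%, 43.9% and 46.2% in the same order. In all, 2835 interval probes (18.2%) were detected in at least 1 group, 1677 (10.8%) in all 4 groups, and 9709 (62.3%) were not well above background on any microarray. The median normalized signal intensity of detected interval probes was 51.6, against 223 for detected gene-named probes. Probes differ in how well they hybridize and the sets in base composition, with a median of 45% and 41.7% G and C, so this is a difference of signals and not of RNA levels.

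The microarrays of a group did not detect equal shares. Well above background were 17.4% to 20.3% of the interval probes on the EL microarrays, 19.6% to 27.0% in EH, 16.1% to 20.6% in PL and 16.1% to 21.2% in PH. The highest value belonged to EH sample 2, and the other 3 EH samples lay at 19.6%, 20.1% and 21.3%. PH sample 2 was the highest of PH, at 21.2% against 16.1%, 16.8% and 18.5%. Both samples also had the highest share of gene-named probes in their group, with 57.5% for EH sample 2 and 51.3% for PH sample 2.

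The labelled cell type was checked with marker genes. All 8 pan-CM genes on the list were detected, with the brightest probe at Myh6. The gene with the brightest probe is named for each list, which does not rank the genes, since probes differ in how well they hybridize. Myh6, the alpha myosin heavy chain gene, was the 1 pan-CM gene called between groups, higher in EH than in EL by 1.84 and in PL than in EL by 1.98 on the log2 scale. The pan-CM sum was 305136 ± 17274 in EL and 473026 ± 16555 in EH, then 645364 ± 30652 in PL and 567460 ± 35332 in PH (SD, n = 4). The fractions differed in chamber markers. Of 12 atrial genes, with the brightest probe at the atrial light chain gene Myl4, 11 were higher in EH than in EL and all 12 were higher in PH than in PL. Of 8 ventricular genes, with the brightest probe at the ventricular light chain gene Myl2, 4 were lower in EH and all 8 were lower in PH. The sum of the atrial genes was 183045 ± 10230 in EL and 732360 ± 5976 in EH, then 46503 ± 31878 in PL and 989979 ± 51368 in PH (SD, n = 4). The summed ventricular signal was 468874 ± 10220 and 179203 ± 35570 at E15.5 and 350958 ± 19973 and 31161 ± 5264 at P2, each for the ITGA6low fraction first. A difference of an interval probe between fractions therefore stands beside a difference in chamber markers. In these bulk samples fewer cells of a type and less RNA per cell cannot be told apart.

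Markers of other cell types moved as well. Of 10 endothelial and endocardial genes 5 were higher in EH than in EL and none passed in PH against PL. Their summed signal was 2160 ± 127 in EL against 7513 ± 3308 in EH, and 1496 ± 669 in PL against 1832 ± 375 in PH, with the brightest probe at Egfl7. Not well above background on any microarray of the group were 4 of the 10 genes in EL and 0 in EH, then 6 in PL and 5 in PH. Of 7 measured leukocyte genes, with the brightest probe at Csf1r, 2 were higher in EH, where sample 6 had a sum of 9853 and the others of 1047 to 2001. In EL, sample 6 was also the highest, with 2148 against 517 to 653. The erythroid sum was likewise highest in sample 6 of each group, with 30963 in EL against 3791 to 4572 and 34663 in EH against 5725 to 17881. Both samples were on slide 2, as was EL sample 3. All 6 epicardial genes and 6 of 8 fibroblast and mesenchymal genes were lower in PL than in EL. The fibroblast sum, with the brightest probe at Col1a2, was 17170 ± 4298 and 8853 ± 2312 in EL and EH but only 897 ± 497 and 675 ± 125 in PL and PH. Of 7 smooth muscle genes 3, and of 7 measured erythroid genes 3, were lower in PL than in EL. So were 2 of 7 measured leukocyte and 1 of 10 endothelial genes. Of 8 neural and Schwann cell genes, with the brightest probe at Dbh, 1 was higher in EH than in EL, 1 in PL than in EL and 1 in PH than in EH. Their sum was 291 ± 32.2 in EL and 435 ± 61.0 in EH, then 1125 ± 401 in PL and 2655 ± 211 in PH. In PH against EH, 8 of 8 fibroblast, 7 of 10 endothelial, 6 of 7 leukocyte, 5 of 6 epicardial, 4 of 7 smooth muscle and 4 of 7 erythroid genes were lower. Between fractions, 1 smooth muscle gene was higher and 1 lower in EH, and 2 were higher and 2 lower in PH, where 1 epicardial and 1 erythroid gene were higher and 1 fibroblast gene was lower as well. The part of these cells in the differences of interval probes was not tested.

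Among intervals with probes for both strands, more had 1 strand detected than both. Probes for both strands exist for 1041 intervals. Only the forward strand was detected in 201 of these, only the reverse strand in 233, both strands in 197 and neither in 410. Of 1500 pairs of a forward and a reverse probe that overlap by at least 30 bases, 395 had exactly 1 probe detected, 187 forward and 208 reverse. Both were detected in 59 pairs and neither in 1046. As most interval probes were not detected, 1 strand alone is the more frequent outcome even if the strands are unrelated. The counts were not set against that expectation, so no restriction to 1 strand is read from them. Probes of 1 interval and strand did not always agree. Of 1370 interval strands with at least 2 probes and a detected one, 256 had all probes detected and 690 had exactly 1.

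Detection rose with nearness to a detected gene in the same orientation and not in the opposite one. The nearest gene-named probe lay at a median distance of 16327 bases, and 13941 of 15475 placed interval probes (90.1%) had one within 100000 bases. Where the nearest gene-named probe was detected and ran in the same orientation, 91.1% of 90 interval probes within 60 bases were detected. The share was 58.1% of 360 at 60 to 1000 bases, 34.6% of 706 up to 5000 bases, 26.1% of 1445 up to 20000 bases, 21.6% of 1570 up to 100000 bases and 15.7% of 396 beyond. In the opposite orientation it stayed between 11.9% and 17.1% in all of these distance classes. Beside a gene-named probe that was not itself detected, it lay between 7.95% and 16.8% in the same and between 7.86% and 15.1% in the opposite orientation. Of the 2806 detected and placed interval probes, 535 (19.1%) were within 5000 bases of a detected gene-named probe of the same orientation, and 188 were over 100000 bases from any gene-named probe.

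Base composition also went along with detection. Of probes with at most 30% G and C, 5.39% of 297 were detected, and of probes with over 55% G and C, 30.6% of 1989. By distance to the interval's 3′ end, 18.2% of probes were detected within 200 bases, 15.2% at 200 to 1000, 17.9% up to 5000, 19.9% up to 20000 and 18.4% beyond.

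The strongest interval signals did not belong to a fraction. The brightest probe, A_30_P01031754 in chr19:5801802-5802597 on the reverse strand, lies 6417 bases from the probe of Malat1, an abundant nuclear lncRNA, in the same orientation. It averaged 95525 ± 12597 in EL and 102624 ± 25980 in EH, then 140346 ± 17184 in PL and 136681 ± 51379 in PH (SD, n = 4). The second, in chr17:17481706-17482457, lies 183 bases from a probe named for Oaz1, an inhibitor of polyamine synthesis. Another Oaz1 probe is placed on chromosome 10, so a copied sequence may be read here, and its value is uncertain as a lincRNA level. None of the 5 brightest interval probes was called in a comparison of fractions or stages.

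To ask which intervals differ between ITGA6high and ITGA6low CMs, the fractions were compared within each stage. A probe was called when the adjusted p of limma was at most 0.05 and the change at least 3-fold. At E15.5, 44 interval probes were higher in EH and 32 lower, beside 1.17% and 0.454% of all 55681 probes tested. These are 0.282% and 0.205% of the interval probes. At P2, 119 were higher in PH and 77 lower, or 0.763% and 0.494%, beside 1.73% and 0.916% of all probes. Among the 2835 interval probes detected in at least 1 group, 1.45% and 0.882% were called at E15.5 and 3.21% and 1.23% at P2, beside 2.97% and 1.08%, and 4.22% and 1.96%, of the detected gene-named probes. A probe can be detected through its brighter group alone, so these shares are given as descriptions. The brighter group was detected on all 4 microarrays for 36 and 23 of the E15.5 calls and for 87 and 30 of the P2 calls. The other calls rest on signals near background. A setting called normexp below used normexp background correction in place of the software's own and an offset of 50 on every signal. With these 2 changes together, 3 probes were called higher and 0 lower at E15.5, and 23 and 2 at P2. Their separate effects were not tested. The median log2 fold-change of detected interval probes was -0.14 for EH against EL and -0.15 for PH against PL, beside -0.03 and 0.01 for detected gene-named probes. Without regard to detection it was -0.03 and -0.01 for interval probes and -0.02 and -0.01 for all probes.

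The E15.5 samples lay on 2 slides, with EL samples 2 and 8 and EH samples 2, 3 and 8 on slide 1 and EL samples 3 and 6 and EH sample 6 on slide 2. The difference was at least 3-fold for 37 of the 44 higher and 25 of the 32 lower probes within slide 1 and for 40 and 23 of them within slide 2. The calls were made on these same samples, and slide 2 holds a single EH sample, so these counts describe sizes only.

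At both stages 34 interval probes were higher in the ITGA6high fraction and 16 were lower, and none was called in opposite directions. These are 0.218% and 0.103% of the interval probes, beside 0.585% and 0.232% of all probes. The brighter group was detected on all 4 microarrays for 29 and 9 of them. With normexp and its offset of 50 the counts of 34 and 16 became 1 and 0. With signals floored at the lowest one well above background they were 19 and 7. When probes within 200000 bases were joined, these 50 probes formed 20 loci, 12 with higher and 9 with lower probes. The locus beside Tbx5 had both. Of the loci with lower probes, chr13:28947034-28949166 lies within the span of chr13:28537223-28975446, and the 2 were counted separately. For 17 of the 20 loci a detected gene-named probe lay within 500000 bases, and for 8 such a probe was called at both stages too. A window of this size can hold many genes. The share around other intervals was not counted, so these numbers are descriptions only. Loci with a transcription factor gene nearby are given first, although Meis2 is over 200000 bases from its interval. Where no microarray of the dimmer group was well above background, only a lower bound of the fold is given. It sets the bright group's mean against the lowest signal well above background of each microarray, or the probe's own signal where that was higher.

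The interval beside Tbx5 carried opposite differences on its 2 strands. Tbx5 encodes a T-box transcription factor of the atria and the left ventricle that is needed for heart septation. The gene's own probe lies 58096 bases from the forward probe A_30_P01029463, in the same orientation. For this forward probe, the signal was 10.4, 12.4, 13.2 and 7.10 in the EL samples and 194, 90.3, 65.9 and 98.6 in EH. It was 3.75, 15.4, 17.1 and 3.45 in PL and 654, 362, 259 and 181 in PH. All ITGA6high samples were above all ITGA6low samples, and PH sample 2 was the highest. The fold was at least 7.07 at E15.5 (adjusted p = 0.0018 by limma) and at least 16.8 at P2 (adjusted p = 1.4e-05).

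The other 2 forward probes with signal, 7.71 and 7.77 kb from the interval start where the first is at 6.68 kb, moved alike. For A_30_P01017487 the EL samples lay between 3.83 and 4.15 and the EH samples between 23 and 50, while PL lay between 4.05 and 10.7 and PH between 57.2 and 290. Its overlapping partner on the reverse strand, A_30_P01023819, was not detected in any group.

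The reverse strand of the same interval went the other way. Its brightest probe, A_30_P01021685, lies at 9.91 kb and was detected on all 16 microarrays. It read 761, 811, 810 and 860 in EL and 282, 368, 329 and 374 in EH, then 608, 607, 904 and 862 in PL and 219, 279, 299 and 317 in PH. Every ITGA6low sample was above every ITGA6high sample at both stages. The log2 fold-change was -1.27 ± 0.15 (SE, adjusted p = 1.0e-04 by limma) at E15.5 and -1.41 ± 0.15 (adjusted p = 2.1e-05) at P2, which is short of 3-fold. The reverse probe A_30_P01030372 was called at both stages, at least 3.99-fold lower in EH (adjusted p = 0.00017) and at least 1.18-fold lower in PH (adjusted p = 0.0015). The reverse probe A_30_P01029862, which overlaps the first forward probe by 44 bases, averaged 75.7 ± 14.1 in EL and 43.0 ± 10.6 in EH, then 93.5 ± 15.4 in PL and 47.8 ± 9.13 in PH and was not called.

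Tbx5 itself was higher in the ITGA6high fractions, with 952 ± 71.2 in EL and 6291 ± 708 in EH, then 1141 ± 314 in PL and 12849 ± 1616 in PH (SD, n = 4). Its log2 fold-change was 2.72 ± 0.18 at E15.5 (SE, adjusted p = 5.9e-07 by limma) and 3.53 ± 0.18 at P2 (adjusted p = 1.8e-08). Tbx3, a T-box gene of the conduction system on the other side of the interval, changed by 0.67 and -0.70 on the log2 scale and was not called in either comparison.

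On chromosome 7, the forward strand of chr7:77555482-77634858 was higher in the ITGA6high fractions, as was Nr2f2, which encodes the orphan nuclear receptor COUP-TFII that specifies atrial identity. The probe A_30_P01032993 read 73.8, 76.4, 57.5 and 55 in EH and 54.1, 52.0, 38.6 and 44.3 in PH. All EL samples lay between 3.99 and 7.96 and all PL samples between 4.1 and 10.7, none of them well above background. The fold was at least 4.45 at E15.5 (adjusted p = 2.1e-06 by limma) and at least 2.42 at P2 (adjusted p = 7.5e-06). A second probe of the interval was called at both stages too, and the third, detected on all 16 microarrays, changed by 0.75 and 0.52 on the log2 scale and was not called. The gene-named probes nearby moved the same way. The noncoding B130024G19Rik, on the same strand, was at least 2.29-fold higher in EH (adjusted p = 8.4e-05) and was well above background on 2 PH microarrays and no PL microarray. Nr2f2, on the opposite strand and 87435 bases from the nearest called probe of the interval, changed by 4.57 on the log2 scale at E15.5 and was at least 58.5-fold higher in PH (adjusted p = 4.1e-10).

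On chromosome 13, a probe on the reverse strand of chr13:73472571-73483846 was lower in the ITGA6high fractions, as was Irx4, which encodes the Iroquois homeodomain factor of ventricular CMs. The probe A_30_P01018323 read 29.1, 91.7, 86.9 and 43.5 in EL and 5.77, 15.0, 3.32 and 11.9 in EH. It read 103, 91.3, 200 and 234 in PL and 14.7, 8.48, 16.5 and 8.44 in PH. The fractions did not overlap, although the EL samples spread over 3-fold. The log2 fold-change was -2.88 ± 0.52 at E15.5 (SE, adjusted p = 0.0027 by limma), and the fold was at least 8.87 at P2 (adjusted p = 0.00023). The probe of D630045M09Rik, an uncharacterised transcript 2505 bases away in the same orientation, changed by -2.44 on the log2 scale at E15.5 and was at least 13-fold lower in PH (adjusted p = 1.2e-05). Irx4, 73064 bases away, changed by -2.31 and -5.57 on the log2 scale. The nearer genes Mrpl36 (10261 bases, -0.92 and -1.18) and Ndufs6 (22452 bases, -0.65 and -0.71) were not called. Of the 5 reverse probes of the interval, 2 were detected and 1 was called at each stage.

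On chromosome 2, the 3 forward probes of chr2:115900355-115900904 were all lower in EH and in PH. The nearest gene-named probe, 2810405F15Rik, lies 326 bases from A_30_P01031970 on the opposite strand. It was not detected in any group and changed by -0.02 and -0.01 on the log2 scale. Meis2, which encodes a TALE homeodomain cofactor, is the nearest detected gene, 211100 bases away and on the opposite strand. The probe A_30_P01031970 read 170, 216, 178 and 172 in EL and 64.2, 50, 36.6 and 36.5 in EH, then 190, 136, 118 and 84.4 in PL and 36.3, 28.7, 9.97 and 15.0 in PH. The lowest ITGA6low value at each stage was above the highest ITGA6high value. The log2 fold-change was -2.01 ± 0.36 at E15.5 (SE, adjusted p = 0.0027 by limma) and -2.68 ± 0.36 at P2 (adjusted p = 0.00016). Meis2 changed by -1.34 and -1.55 on the log2 scale, short of 3-fold.

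The group of intervals on chromosome 6, between 31078802 and 31293337, gave the largest number of fraction calls among the 20 loci. It has 20 probes in 7 interval strands, of which 15 were detected, 11 were called higher in EH and 14 higher in PH. No probe of the region was called lower. Of the detected genes nearby, AB041803, 861 bases from an interval probe on the same strand, was called higher in EH and was at least 2.44-fold higher in PH (adjusted p = 0.00081 by limma). The noncoding 5330406M23Rik, 19926 bases away, was at least 4.51-fold higher in EH (adjusted p = 0.00078) and changed by 2.70 on the log2 scale at P2. Further out, Mkln1 (156650 bases away) was not called, with 0.20 and 0.12 on the log2 scale, and Klf14 (172603 bases) was called higher in EH and not in PH. Podxl, which encodes a sialomucin of podocytes and vessels (184402 bases), and Mest, an imprinted gene expressed from the paternal copy (380524 bases), were called higher in both, and Copg2 beside Mest in neither. Cpa1 (483563 bases) was called higher in EH and not in PH. Nearest to the brightest intervals is 2210408F21Rik, whose probe was not well above background on any of the 16 microarrays.

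The probe A_30_P01022038 of this group showed the pattern most clearly. It read 4.01, 4.29, 8.20 and 4.31 in EL, none well above background, and 99.0, 80.5, 85.2 and 69.3 in EH. In PL it read 36.9, 50.5, 70.7 and 44.0, and in PH 488, 528, 619 and 567. The samples of the 4 groups did not overlap, except that 1 PL sample lay within the range of EH. The fold of EH over EL was at least 5.67 (adjusted p = 2.0e-07 by limma), and the log2 fold-change of PH over PL was 3.48 ± 0.23 (SE, adjusted p = 2.1e-07). Against E15.5, the fold was at least 3.36 in PL (adjusted p = 2.6e-07) and the log2 fold-change was 2.73 ± 0.23 in PH (adjusted p = 2.0e-06).

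On the reverse strand of chr6:31078802-31079644, the probe A_30_P01029853, 19926 bases from the noncoding 5330406M23Rik, averaged 20.2 ± 3.50 in EL and 222 ± 50.9 in EH, then 36.7 ± 8.38 in PL (SD, n = 4). In PH it read 846, 278, 316 and 195, with sample 2 far above the others. It differed between fractions and was not called between stages, while A_30_P01033174 of the same interval was called higher in PL than in EL, although it was not well above background on any PL microarray. In chr6:31267612-31293337 on the forward strand, the probe A_30_P01022692 was near background in EL, EH and PL, with no sample above 11.5, and read 63.0, 61.8, 68.7 and 64.5 in PH. The fold of PH over PL was at least 3.33 (adjusted p = 4.8e-07).

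Beside Cntn1, which encodes the cell adhesion molecule contactin 1, all 5 probes of chr15:92174226-92201201 on the forward strand were higher in EH and in PH. The probe A_30_P01018947 read 16.4, 10.6, 8.50 and 8.49 in EL and 101, 115, 74.7 and 83.6 in EH, then 29.1, 35.1, 31.3 and 29.6 in PL and 253, 224, 309 and 287 in PH. The ranges were separate in all 4 groups. The log2 fold-change was 3.12 ± 0.20 at E15.5 (SE, adjusted p = 4.2e-07 by limma) and 3.09 ± 0.20 at P2 (adjusted p = 1.5e-07). Pdzrn4 probes on the same strand, 392584 and 393672 bases away, were called higher in EH and in PH. Cntn1, 26634 bases away in the same orientation, was well above background on all EH microarrays and on no other. It averaged 8.59 ± 2.90 in EL and 78.7 ± 6.18 in EH but 6.60 ± 3.41 in PL and 9.54 ± 4.66 in PH, and was at least 5.38-fold higher in EH than in EL (adjusted p = 4.9e-05).

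The 3 neighbouring probes of the adjacent interval chr15:92197603-92208534, all on the forward strand, did not move together. The first, A_30_P01018460, averaged 6.35 in EL and 21 in EH, then 8.18 in PL and 54.2 in PH, and the last, A_30_P01031118, averaged 9.59, 35.2, 12.8 and 79.9. Both were called higher in EH and PH. The probe between them, A_30_P01018976, read 47.6, 29.3, 25.5 and 52.1 in EL and 51.0, 60.9, 38.0 and 59.3 in EH, but 301, 209, 282 and 205 in PL and 93.7, 52.5, 127 and 101 in PH. At P2 it was thus higher in every PL than in every PH sample. Its interaction of fraction and stage was -1.94 ± 0.41 on the log2 scale (SE, adjusted p = 0.019 by limma).

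In chr8:57977383-57985712 on the forward strand, the probe A_30_P01018560 read 70.9, 80.8, 67.8 and 95.4 in EH and 196, 135, 180 and 215 in PH, with all EL and PL samples at or below 13.3. The fold was at least 5.34 at E15.5 (adjusted p = 3.8e-06 by limma) and at least 9.24 at P2 (adjusted p = 6.6e-08). The nearest gene-named probe, Adam29, lies 371666 bases away. On the forward strand of chr13:48620882-48643532, 4 of 10 probes were detected and 1 was called at each stage. This probe, A_30_P01025995, fell from 125 ± 18 in EL to 32.3 ± 5.68 in EH and from 191 ± 43.0 in PL to 28.0 ± 4.45 in PH. The log2 fold-change was -1.96 ± 0.18 (SE, adjusted p = 8.6e-06) and -2.76 ± 0.18 (adjusted p = 1.6e-07).

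On chromosome 10, the 3 reverse probes of chr10:93975406-93977476 were higher in PH and 2 of them in EH. They lie at least 73459 bases from Tmcc3, which runs in the opposite orientation and was higher in EH and PH by 2.10 and 2.11 on the log2 scale at its brighter probe. On chromosome 1, 4 of 5 forward probes of chr1:158979050-159007700 were lower in EH and 3 in PH. The probe A_30_P01020037 averaged 60.9 ± 10.4 in EL and 11.8 ± 5.38 in EH, then 46.2 ± 9.71 in PL and 7.48 ± 4.83 in PH. On chromosome 13, all 5 reverse probes of chr13:34693404-34717987 were higher in PH and 3 of them in EH. PH sample 2 read 219 at A_30_P01024586, against 69.2 to 81.9 in the other PH samples.

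Calls made at P2 alone included 2 intervals whose 5 probes were all called. The 5 reverse probes of chr15:32167516-32174427 lie within 86 bases of probes named 0610007N19Rik, in the same orientation, and changed by 2.12 to 2.30 on the log2 scale at P2. At E15.5 they changed by 1.15 to 1.22, below 3-fold. The 5 forward probes of chr10:69669025-69686275, beside 2310015B20Rik, were detected in PH and were well above background on at most 1 PL microarray. A_30_P01032544 changed by 3.39 and A_30_P01027510 by 2.95 on the log2 scale at P2, and the other 3, with no PL microarray well above background, were at least 2.21-fold to 3.74-fold higher. None of the 5 was called at E15.5. Among lower probes, A_30_P01022557 in chr13:24615451-24615973 read 133, 114, 120 and 65.4 in PL and at most 16.8 in any sample of the other groups. The fold of PL over PH was at least 6.52 (adjusted p = 1.0e-06).

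The interaction of fraction and stage was called for 34 interval probes with a positive and 25 with a negative value, or 0.218% and 0.160%, beside 0.602% and 0.602% of all probes. With normexp and its offset of 50 these counts were 0 and 2. Only 2 and 3 of the 34 and 25 probes were detected on all 16 microarrays. The 2 positive ones are neighbours in chr1:33965074-34060850, at least 116690 bases from Bend6 in the opposite orientation. A_30_P01031585 read 134, 160, 96.6 and 113 in EL and 41.7, 46.2, 31.8 and 48.5 in EH, while PL, at 22.6, 20.5, 69.3 and 43.5, overlapped with PH, at 47.5, 58.3, 50 and 61.8. Its interaction was 2.23 ± 0.45 on the log2 scale (SE, adjusted p = 0.015 by limma). Bend6 was called lower in EH (-1.76) and changed by 0.77 at P2.

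Within 5000 bases, interval probes followed neighbours of the same orientation more closely than those of the opposite one. Of 14 probes called at E15.5 within 5000 bases of a gene-named probe of the same orientation, 10 had that gene called in the same direction. Of 4 in the opposite orientation, none had. At P2 these numbers were 25 of 37 and 3 of 15. Across detected pairs within 1000 bases, the log2 fold-changes of the interval probe and the gene-named probe correlated with r = 0.897 at E15.5 and r = 0.912 at P2 in the same orientation (n = 291 pairs). In the opposite orientation r was 0.340 and 0.473 (n = 61 pairs). At 1000 to 5000 bases r was 0.585 and 0.580 in the same orientation (n = 244 pairs) and 0.187 and 0.265 in the opposite one (n = 116 pairs). At 5000 to 20000 bases r was 0.293 and 0.406 in the same (n = 377 pairs) and 0.273 and 0.0718 in the opposite orientation (n = 159 pairs). From 20000 to 100000 bases it was 0.536 and 0.387 in the same (n = 339 pairs) and 0.116 and 0.296 in the opposite orientation (n = 190 pairs), so r did not fall steadily with distance. These correlations are across probes of the same microarrays, many pairs share a gene, and they are given as descriptions.

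A list of 49 genes of cardiac transcription factors and chamber identity was used to look for interval probes at such loci. Only 37 interval probes had one of these genes as their nearest gene-named probe within 100000 bases, and 5 were detected. With so few probes, their counts were not read against those of all probes. None was called in EH against EL. Both probes called in PH against PL lie in chr9:24617562-24625262, 57403 and 57465 bases from Tbx20, which encodes a T-box factor of the myocardium, in the opposite orientation. A_30_P01032712 read 28.4, 47.4, 38.9 and 34.9 in PH and at most 18.5 in any sample of the other groups. The log2 fold-change of PH over PL was 1.93 ± 0.52 (SE, adjusted p = 0.026 by limma), and the 3 Tbx20 probes changed by 0.77 to 1.08 and were not called.

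Among 30 named lncRNA genes on the microarray, used for comparison, 21 were detected. None was called in EH against EL and 1 each was called higher and lower in PH against PL. The brightest probe was one of H19, an imprinted fetal lncRNA. It averaged 115133 in EL and 91544 in EH, then 3051 in PL and 29756 in PH.

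The stages were compared within each fraction. In PL against EL, 213 interval probes were higher and 73 lower, or 1.37% and 0.468%, beside 1.60% and 2.15% of all probes. In PH against EH, 177 were higher and 39 lower, or 1.14% and 0.250%, beside 1.30% and 2.10% of all probes. With normexp and its offset of 50 only 15 were higher and 6 lower in PL, and 15 and 0 in PH. The brighter group was detected on all 4 microarrays for 120 and 44 calls in PL against EL and for 115 and 25 in PH against EH. Gene-named probes had more lower than higher calls, with 1.87% higher and 3.23% lower in PL and 1.54% higher and 3.21% lower in PH. Among detected probes, 4.59% of interval and 2.92% of gene-named probes were higher in PL against EL, and 4.20% and 2.48% in PH against EH. The lower calls were 1.76% and 5.34% in PL and 0.952% and 5.08% in PH. A probe can be detected through its brighter stage alone, so no order of the 2 sets is read from these shares. Without PH sample 2, the lower interval probes in PH numbered 70 in place of 39. Both fractions had 65 probes higher at P2 in common, in 38 intervals, and 17 lower, in 12 intervals. These are 0.417% and 0.109% of the interval probes, beside 0.580% and 1.06% of all probes. These comparisons share no samples, but both hold the same difference in enrichment and slide.

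A region with rises at P2 in both fractions lay on chromosome 13, at lower coordinates than Sox4. This gene encodes an SRY-box factor of the outflow tract and endocardial cushions. Between 28477490 and 28985604 the region holds 42 interval probes, 8 forward and 34 reverse, in 14 overlapping interval strands. No forward and 16 reverse probes were detected. Higher at P2 were 11 probes in PL and 9 in PH, and none was lower. The same 9 probes, all between 12.8 and 33.9 kb from one end of the region, were called in both fractions. Probe A_30_P01017880 read 6.32, 3.99, 4.21 and 4.50 in EL and 11.5, 4.04, 6.26 and 4.16 in EH, none well above background. It read 184, 132, 187 and 141 in PL and 309, 127, 155 and 118 in PH. The fold was at least 10.9 in the ITGA6low (adjusted p = 2.2e-07 by limma) and at least 12.9 in the ITGA6high fraction (adjusted p = 5.5e-07), while PH and PL differed by only 0.04 ± 0.35 on the log2 scale.

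At higher coordinates on the same strand, which is against the direction of the reverse strand, there were calls between fractions. From 59.8 kb on, 5 probes were called lower in EH and 10 lower in PH, whether detected or not. Not detected in any group were A_30_P01029325 and A_30_P01019384, called lower at both stages. The same held for all 3 probes of chr13:28760289-28977218, of which 2 were called lower in PH. None of the detected probes was called between stages, so the counts for fraction and stage rest on unlike filters. A_30_P01018833 read 35.3, 30.7, 34.4 and 40.2 in EL and 52.8, 42.5, 49.7 and 35.2 in PL, with all EH and PH samples at or below 11.4 and not well above background. The fold was at least 2.99 at E15.5 (adjusted p = 0.00014 by limma) and at least 2.78 at P2 (adjusted p = 5.9e-05). The noncoding E130104P22Rik, 69777 bases away in the same orientation, was called lower at both stages as well, although it was not detected on all microarrays of any group.

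A single interval name could cover probes that rose with stage and a probe that hardly changed. The 3 detected probes near the lower-coordinate start of chr13:28477490-28985604, of which A_30_P01017880 is one, rose at P2 in both fractions. Another detected one, A_30_P01027179, 451 kb from the start, averaged 2302 ± 94.5 in EL and 2229 ± 34.0 in EH, then 2056 ± 72.3 in PL and 2223 ± 81.9 in PH (SD, n = 4) and changed by -0.16 ± 0.05 on the log2 scale at most. The 3 Sox4 probes changed by -0.20 to 0.16 between EH and EL and by 0.34 to 1.02 between PL and EL. Between PH and PL they changed by 0.53, 0.50 and 0.62 (adjusted p = 0.0019, 0.0080 and 0.024 by limma), above 0 where the 10 interval probes called between these groups were lower. Between PH and EH they changed by 1.00, 1.29 and 1.49 on the log2 scale (adjusted p = 6.1e-06, 2.5e-06 and 2.2e-05 by limma), and none of these changes reached 3-fold.

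Another rise at P2 was at A_30_P01023596 in chr19:56815544-56821403, on the reverse strand and 16416 bases from Adrb1, which encodes the beta-1 adrenergic receptor. It read 15.3, 16.4, 8.69 and 20.0 in EL and 417, 330, 372 and 398 in PL, and 4.02, 4.43, 6.70 and 10.0 in EH and 57.6, 42.0, 61.2 and 47.2 in PH. Every P2 sample was above every E15.5 sample, and PL was above PH. The fold of PL over EL was at least 22.4 (adjusted p = 9.0e-08 by limma). Adrb1, which runs in the opposite orientation, rose by 1.63 in PL and 2.08 in PH on the log2 scale at its brighter probe.

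A fall at P2 was seen at A_30_P01031408 in chr8:67552315-67561235, 176 bases from a probe named Gm10664 in the same orientation. It read 106, 91.7, 189 and 98.2 in EL and 50.2, 28.5, 103 and 87.4 in EH, and no P2 sample was above 6.15. The fold was at least 6.0 in PL (adjusted p = 2.8e-07 by limma) and at least 3.74 in PH (adjusted p = 3.8e-06). On chromosome 12, A_30_P01032789 in chr12:110894095-110899517 averaged 323 ± 31.4 in EL and 255 ± 51.4 in EH, then 42.5 ± 22.9 in PL and 48.9 ± 10.2 in PH. It lies in the imprinted region of Meg3, an lncRNA of the maternal copy, whose brightest probe averaged 2142, 2813, 848 and 710 in the same order. All 3 Meg3 probes were called lower in PH against EH, and 1 of the 3 in PL against EL. Of 3 probes of Mirg in the same region, 1 and 2 were called lower in these comparisons.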

How the data were processed

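RNA of 16 samples was hybridized to one-color microarrays, read by the authors with Agilent Feature Extraction version 10.7.3.1. The deposited signal intensity of each spot (processed signal) is background-subtracted within the microarray, with surrogate values for the dimmest spots. Flags for signals well above background come from the same software. The authors also deposited quantile-normalized log2 values per probe, which were used as an alternative.

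Spots flagged as outliers were dropped, spots of a probe were averaged, and processed signals were quantile normalized over all 16 microarrays and taken to log2. Group means were fitted with limma 3.58.1 in R 4.3.3, and p-values were adjusted by Benjamini-Hochberg over all 55681 probes. A probe was called when its adjusted p did not exceed 0.05 and its fitted means were 3-fold or more apart. The interaction is the PH against PL minus the EH against EL difference. Probe positions are those of the files (mm9). No genome or gene models of this build were used, so exons and introns were not assigned. The nearest gene-named probe was found by the distance between probe centres, without regard to orientation. Linear means and SDs are over the 4 samples of a group.

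Sample numbers are shared between the fractions of a stage. Deviations of same-numbered samples correlated with r = 0.255, 0.189, 0.450 and 0.379 at E15.5 and with 0.375, 0.176, -0.031 and 0.542 at P2. The E15.5 microarrays were on 2 slides and those of P2 on the third. The precision is limited by 4 microarrays per group.

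Alternatives were the sample number as a block, the slide as a block and the 75th percentile in place of quantile scaling. Both blocks were fixed terms for the comparisons of fractions and the interaction, and random for the comparisons of stages. Normexp background correction was run with an offset of 50. Others were a floor at the lowest signal well above background, the deposited log2 values, only detected probes and a trended variance. Each sample was also left out in turn. The methods' own test (analysis of variance with Benjamini-Hochberg adjustment and Tukey's post-hoc test) was run as well. The test was also run on simulated data, of which no result is given here. The interval probes, marker lists and comparisons were chosen with earlier results of these data known. Probes named in the text were those called at both stages, those with the largest change in each comparison, the brightest ones, and those of a few regions chosen after their values were seen. The 11 probes of 1 interval range are not reported here.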

Additional observations from a re-analysis of the deposited data

Results flagged for a closer look

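In a group of 4 samples, a single value far from the other 3 was sought. The search took probes called at both stages with their brighter groups detected, and the 5 interaction probes given below. It used only groups in which the probe was detected. The share of interval probes well above background was searched in each group as well. Other probes named in the report were not searched. Of 114 groups 2 had such a value, while chance gives about 1 in 20. Both belonged to PH sample 2. At A_30_P01023118 in chr6:31115515-31168433 it read 235.9, against 75.8 to 87.9 in the other PH samples. At A_30_P01024586 in chr13:34693404-34717987 it read 219, against 69.2 to 81.9. This sample also had the highest share of interval probes well above background in its group, 21.2%.

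The difference between the fractions changed with stage at 5 probes that were well above background on all 16 microarrays, by the interaction term of limma. It was 2.2286 (adjusted p = 0.015) at A_30_P01031585 and 1.7758 (adjusted p = 0.026) at A_30_P01028770, both in chr1:33965074-34060850, on the log2 scale. It was -1.9955 (adjusted p = 0.043) at A_30_P01033314 in chr13:70745633-70776516 and -1.9428 (adjusted p = 0.019) at A_30_P01018976 in chr15:92197603-92208534. It was -1.7146 (adjusted p = 0.026) at A_30_P01021628 in chr11:60728207-60745369, where PL read 980, 540, 1760 and 812.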

How the results depend on the processing

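No named difference reversed under any alternative. Of 3383 recomputed differences of named probes, 3117 kept their direction and side of the threshold and 266 fell below it. Leaving out a sample gave 2176 of the 3383, and 97 of these fell below. With normexp only 23 of 136 kept their side and 113 fell below, and with the floor 93 kept it and 43 of 136 fell below. The number below was 6 of 136 with the sample number as a block, 5 of 136 with the slide as a block and 2 of 136 with 75th-percentile scaling. Counts are given as higher and lower. With normexp they were 3 and 0 (EH against EL), 23 and 2 (PH against PL), 0 and 2 (interaction), 15 and 6 (PL against EL), 15 and 0 (PH against EH) and 1 and 0 (both stages). With the floor they were 22 and 13, 55 and 22, 19 and 8, 99 and 13, 103 and 10, and 19 and 7. When only detected probes were tested, the lower counts of PH against PL and of the interaction were 37 and 15, and PL against EL had 133 higher. When the brighter group had to be well above background on all 4 microarrays, a condition added after seeing the data, PH against PL had 30 lower, PL against EL 120 and 44, and PH against EH 115 and 25. Well above background on at least 1 microarray were 3818 interval probes in EL and 4948 in EH, then 3703 in PL and 3812 in PH.

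When single samples were left out, the counts were 37 to 47 and 27 to 34 for EH against EL, 114 to 121 and 71 to 114 for PH against PL, 27 to 37 and 19 to 35 for the interaction, 192 to 246 and 67 to 85 for PL against EL, 156 to 191 and 30 to 70 for PH against EH, and 27 to 37 and 13 to 18 for both stages. The 70 lower probes of PH against EH came without PH sample 2. With the sample number as a replicate block, the counts were 46 and 32 for EH against EL, 117 and 78 for PH against PL, 31 and 29 for the interaction, 214 and 73 for PL against EL and 177 and 40 for PH against EH, so pairing moved no count by over 1.5 times. With 75th-percentile scaling the median log2 fold-change of all probes was -0.18 in place of -0.02 (EH against EL), -0.14 in place of -0.01 (PH against PL), 0.19 in place of 0.01 (PL against EL) and 0.19 in place of 0.03 (PH against EH). The floor setting changes the values of signals near background. The normexp setting changes the background method and adds 50 to every signal, which makes folds smaller at brighter probes as well. The cause of the other shifts was not tested.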

Other observations

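Some interval probes were detected in a single group. There were 79 such probes for EL, 181 for EH, 111 for PL and 85 for PH. Another 193 were detected in both E15.5 groups and in neither P2 group, and 57 in both P2 groups and in neither E15.5 group. The ITGA6high fractions alone shared 89 and the ITGA6low fractions alone 29. Gene-named probes were also detected more often in the ITGA6high fraction, at 49.9% against 47.3% for E15.5 and 46.2% against 43.9% for P2. Matching counts of gene-named probes are not given here. Whether these imbalances are particular to interval probes was therefore not tested. EH sample 2 had the highest share of interval probes well above background of all 16 samples, 27.0%.

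Of 59 overlapping pairs in which both strands were detected, 28 differed by at least 4-fold between the strands. Probes differ in how well they hybridize, so these are differences between probes, not levels of the strands. On the far side of Sox4, in chr13:29106280-29120376, the forward probe A_30_P01031015 changed by 2.19 on the log2 scale in PH against PL and by 3.54 in PH against EH. Of 118 interval probes without a position in the files, 29 were detected.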
